A study of Caenorhabditis elegans with 2 samples.

Results

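The regions described here were bound by EGL-43::GFP inside introns of autosomal protein-coding genes of *C. elegans* L3 larvae. A region was formed where peaks of the 2 replicates overlapped by at least 1 bp, and its summit, the point of highest signal, was taken from the peak with the higher fold enrichment. A region was counted as intronic if the summit lay in the body of a protein-coding gene of an autosome, in no exon of such a gene, and not within 500 bp upstream of a protein-coding gene start. By this rule, 1514 of the 7259 regions found in both replicates (20.9%), and 1514 of the 5531 on autosomes (27.4%), were intronic. Of these, 551 had the summit in the first intron of the longest transcript of the host gene, 943 in a later intron, 7 in the first intron of one gene and a later intron of another, and 13 in introns of other transcripts. The numbering follows the direction of transcription, so the first intron is the one nearest to the transcript start.

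Chromatin immunoprecipitation followed by sequencing (ChIP-seq) was used to map EGL-43 in whole larvae of the strain zh136[egl-43::gfp], in which the endogenous gene carries *gfp*. The labels also call the animals wild-type, and both replicates share this genotype. Larvae hatched without food in M9 buffer at 20°C, grew at 25°C for 27 h to the L3 stage, and were fixed, by the labels of both replicates, with formaldehyde and EGS before precipitation with the anti-GFP antibody ab290. The name of the list of replicate 2 holds EGS and that of replicate 1 only E, which the labels do not explain, so the spread between replicates may hold a difference in fixation, whose part was not tested. There were 2 replicates of 1 condition and no control library was used here, so enrichment that any antibody would give at a place cannot be told apart from binding of EGL-43::GFP. Whole larvae were used, so the cells in which a region was bound, including the anchor cell (AC), cannot be told apart either. The tag at the end of the gene marks the long and the short EGL-43 isoform alike.

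EGL-43 is the *C. elegans* homolog of the vertebrate transcription factor EVI1 (MECOM), which has an N-terminal and a C-terminal cluster of zinc fingers that bind different DNA words. In the larva it acts in the AC, a uterine cell that breaches the basement membrane to reach the vulval cells, and in neurons. Introns of nematode genes are mostly short, but long introns often hold enhancers, transcription starts of shorter isoforms, and small non-coding RNA genes. First introns have been known in many animals as places where regulatory elements lie close to the promoter.

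The DNA at the summits is shown for the 7 members of the top 10 by fold enrichment whose sequence is printed, since these carry the strongest signal, and for members of genes the study worked on. Each line gives 101 bases centred on the summit, read from the forward strand of WBcel235, with words named further on in capitals on either strand. Among the 6 words are AGATGAG, bound by the C-terminal fingers of EVI1, ACAAGATA, part of the site of its N-terminal fingers, TGACTCA, the site of AP-1 factors such as FOS-1 and JUN-1, and CAGCTG, an E-box of bHLH factors. The remaining words are AGATAA, which factors of the GATA family bind, and the purine repeat GAGAGAG. The end of TGACTCA and the start of CTCATCT, the reverse of AGATGAG, can overlap.
cyc-2.1 intron 1, chrIV:4748523-4748623: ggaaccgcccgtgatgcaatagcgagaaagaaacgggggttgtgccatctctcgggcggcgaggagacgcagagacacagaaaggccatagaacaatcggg
ckb-2 intron 7, chrIII:4369527-4369627: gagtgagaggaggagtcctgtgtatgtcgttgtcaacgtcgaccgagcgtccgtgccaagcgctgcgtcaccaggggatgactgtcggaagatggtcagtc
mpk-1 intron 1, chrIII:4223733-4223833: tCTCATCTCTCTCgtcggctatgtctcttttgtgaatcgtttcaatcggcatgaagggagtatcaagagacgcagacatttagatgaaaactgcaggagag
unc-119 intron 1, chrIII:10905287-10905387: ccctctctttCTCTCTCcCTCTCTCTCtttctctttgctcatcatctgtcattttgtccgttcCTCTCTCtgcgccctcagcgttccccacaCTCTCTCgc
F40F11.3 intron 1, chrIV:11593537-11593637: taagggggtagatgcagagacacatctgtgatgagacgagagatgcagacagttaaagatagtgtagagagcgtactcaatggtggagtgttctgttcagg
daf-5 intron 1, chrII:14040514-14040614: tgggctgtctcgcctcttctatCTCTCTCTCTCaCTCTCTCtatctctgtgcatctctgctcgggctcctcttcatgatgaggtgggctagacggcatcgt
rme-1 intron 1, chrV:6213868-6213968: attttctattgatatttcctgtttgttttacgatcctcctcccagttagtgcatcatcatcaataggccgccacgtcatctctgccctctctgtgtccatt

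The windows of *mpk-1*, *unc-119* and *daf-5* hold runs of GAGAGAG, read here as CTCTCTC, and that of *mpk-1* also holds AGATGAG. Those of *cyc-2.1*, *ckb-2*, *F40F11.3* and *rme-1* hold none of the 6 words. The strongest member of each study gene, the first-intron member of *egl-43* and a *fos-1* member with 2 AP-1 words are shown next.
egl-43 intron 1, chrII:9956283-9956383: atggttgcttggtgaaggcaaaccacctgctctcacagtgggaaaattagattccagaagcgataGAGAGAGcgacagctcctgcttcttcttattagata
egl-43 intron 5, chrII:9960112-9960212: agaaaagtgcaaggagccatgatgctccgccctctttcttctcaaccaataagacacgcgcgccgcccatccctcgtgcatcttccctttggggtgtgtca
fos-1 intron 1, chrV:6004692-6004792: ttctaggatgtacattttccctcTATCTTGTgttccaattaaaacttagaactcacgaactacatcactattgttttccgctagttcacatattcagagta
fos-1 intron 3, chrV:6012273-6012373: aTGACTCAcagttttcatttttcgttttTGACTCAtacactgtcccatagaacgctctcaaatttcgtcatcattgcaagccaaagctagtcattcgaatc
jun-1 intron 6, chrII:9130496-9130596: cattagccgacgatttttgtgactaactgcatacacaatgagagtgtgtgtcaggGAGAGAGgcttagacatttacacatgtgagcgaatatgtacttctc
lin-12 intron 4, chrIII:9066095-9066195: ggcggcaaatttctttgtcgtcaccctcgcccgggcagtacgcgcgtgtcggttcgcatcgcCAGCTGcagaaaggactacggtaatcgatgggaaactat
mig-10 intron 2, chrIII:8291036-8291136: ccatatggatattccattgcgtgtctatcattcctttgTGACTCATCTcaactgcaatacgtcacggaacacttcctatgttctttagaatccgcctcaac

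Fold enrichment is the ratio of the reads at a summit to the background the peak caller estimated. Over the members it ranged from 2.09 to 17.1 in replicate 1, with a median of 3.92, and from 1.95 to 17.1 in replicate 2, with a median of 4.47. The value was higher in replicate 2 in 1044 members (69.0%). The log2 ratio of replicate 2 to replicate 1 was 0.15 in the median, with an SD of 0.32, and this SD is the error set beside differences between single members. Across members, which share both libraries, Pearson's r of the log2 values of the replicates was 0.839. The summits of the replicates lay within 100 bp of each other in 1348 members (89.0%), and 1424 members had 1 peak of each replicate. With 2 replicates, the smallest p that an exact two-sided sign test can give is 0.5, so no difference between medians of groups of members was tested, and both replicates' values are given instead. Counts are compared by 95% intervals that cover counting error only.

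**Figure D1:**
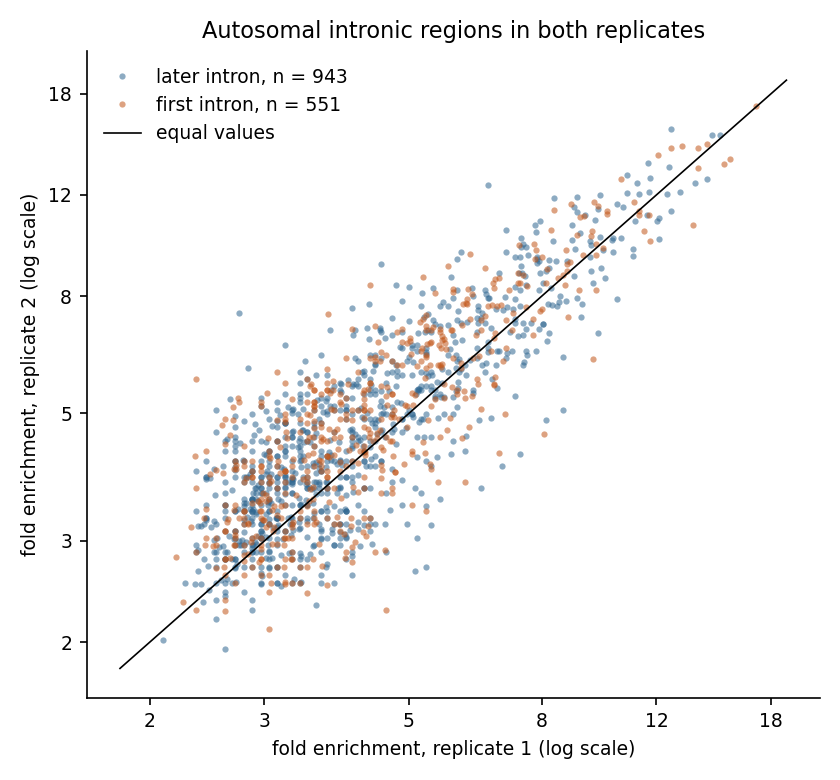
Fold enrichment of intronic regions in replicate 1 (x axis) and replicate 2 (y axis), both on log scales, with 1 point per region. Regions in first introns (551, orange) and later introns (943, blue) lie over the same range, and most points lie above the line of equal values, as 69.0% of all 1514 members were higher in replicate 2.

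Introns make up 33.0% of the autosomal bases by the same rule, or 27.3 Mb, and held 55.5 members per Mb (95% Poisson interval 52.8 to 58.4). This density was above that of exons, with 16.8 regions per Mb, and below that of the 500 bp upstream of gene starts, with 169 regions per Mb, of the zone from 500 to 2000 bp upstream, with 108, and of more distant intergenic sequence, with 88.4. Introns were therefore bound less densely than any other non-exonic class, although they held the most regions of all autosomal classes. Median fold enrichment in replicates 1 and 2 was 3.92 and 4.47 in introns against 4.05 and 4.47 at the 500 bp upstream and 4.18 and 4.81 at 500 to 2000 bp, so that introns were lower than the latter in both replicates. It was 3.52 and 3.97 in exons and 3.83 and 4.30 in distal intergenic sequence, so introns were higher than both in both replicates. Median length was 380 bp for members and 308 bp for regions within 500 bp upstream. It was 343.5 bp in exons, 381 bp at 500 to 2000 bp upstream and 387.5 bp in distal sequence. Of the 2509 intronic regions found in any replicate, 60.3% (58.4 to 62.3%) were in both lists, compared with 68.9% (66.9 to 71.0%) at the 500 bp upstream and 51.6% (48.0 to 55.2%) in exons. The 172 intronic regions found only in replicate 1 and the 823 found only in replicate 2 were weak, with median fold enrichments of 2.87 and 3.04.

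First introns were bound more densely than later ones. They held 85.7 members per Mb (78.7 to 93.2) against 46.1 per Mb (43.2 to 49.1) in later introns, a ratio of 1.86 (1.67 to 2.07). First introns had 36.4% of the members (34.0 to 38.9%) and 23.6% of the intronic bases. When the peaks of each replicate were counted alone, the ratio was 1.88 in replicate 1 and 1.73 in replicate 2. The density did not fall steadily along the gene, since it was 84.8 per Mb in intron 1, 53.2 in intron 2, 38.6 in intron 3, 45.7 in intron 4, 41.7 in introns 5 to 9 and 54.6 from intron 10 on. The intervals of introns 3, 4 and 5 to 9 overlapped.

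Fold enrichment was slightly higher in first introns in both replicates. The medians were 4.01 and 4.62 in first introns and 3.83 and 4.37 in later introns in replicates 1 and 2. These are log2 differences of 0.06 and 0.08, which were not tested. They differ by an SD of 0.012 between the replicates, which share the same regions, so this SD leaves out the spread among members. Median lengths were 382 and 377 bp. A fold enrichment of at least 8 in both replicates was reached by 45 members of first introns (8.17%) and 60 of later introns (6.36%). Of the 10 strongest members 7 lay in first introns, but the share was 42.0% (28.2 to 56.8%) among the top 50 and 37.5% among the top 200, so the intervals of the top 50 and the top 200 include the 36.4% of all members.

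The difference in density depended on the length of the intron. In both orders the density rose with length: in first introns from 20.8 members per Mb in introns under 500 bp to 70.3 at 1 to 2 kb and 172 at 5 kb or more, and in later introns from 13.8 to 35.2 and 164. At 1 to 2 kb and at 2 to 5 kb the intervals of first and later introns were apart, with 133 (114 to 155) against 94.0 (83.2 to 106) per Mb at 2 to 5 kb. In introns of 5 kb or more they overlapped, with 172 (150 to 195) against 164 (147 to 182). The intervals also overlapped in introns under 500 bp, with 20.8 (14.2 to 29.6) against 13.8 (11.1 to 17.02) per Mb. A difference between first and later introns was thus not detectable in the shortest or the longest introns at this number of regions. Introns of 5 kb or more held 231 of the 551 members of first introns and 335 of the 943 of later introns.

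**Figure D2:**
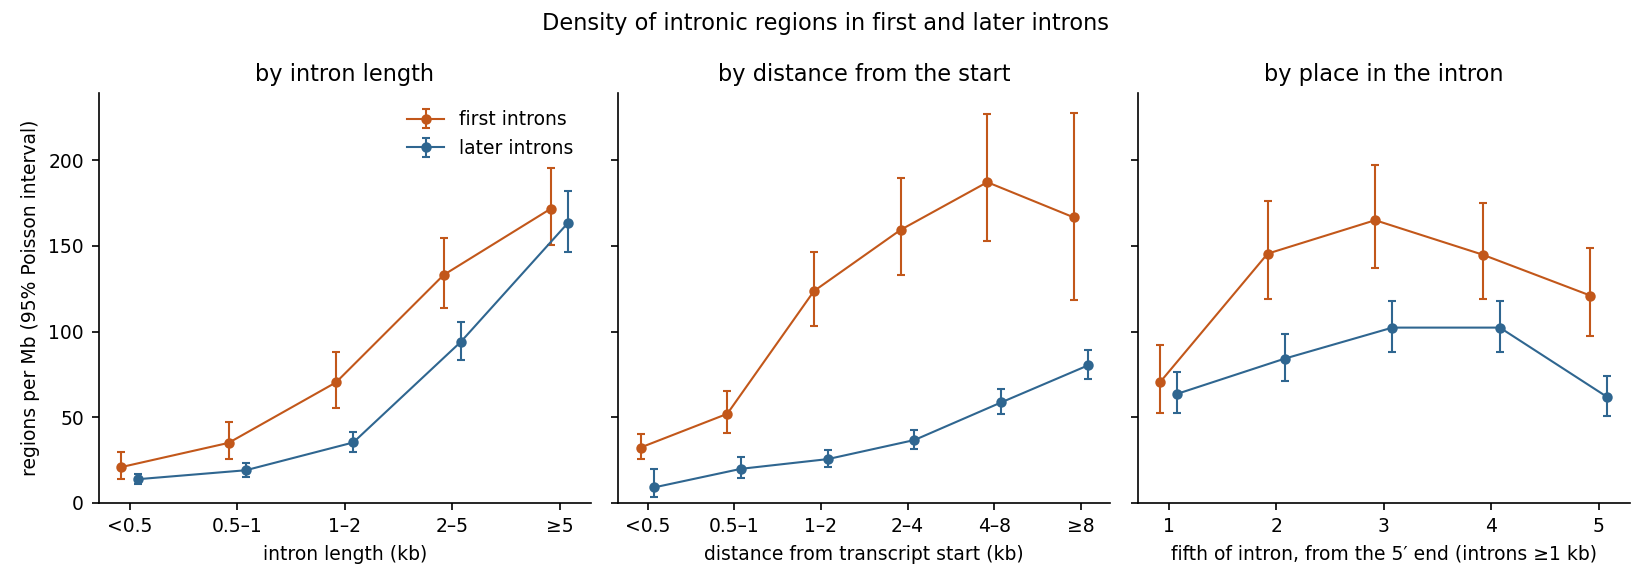
Members per Mb of intronic sequence (y axis, 95% Poisson intervals) in first (orange) and later (blue) introns, by intron length in kb, by distance from the transcript start in kb, and by position in introns of at least 1 kb, cut into 5 equal parts. The curves meet at 172 and 164 per Mb in introns of 5 kb or more, and lie apart at every distance from the start. The intervals also overlap in introns under 500 bp.

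At equal distance from the transcript start, first introns held more members per Mb at every distance, for example 124 against 25.5 at 1 to 2 kb and 187 against 58.6 at 4 to 8 kb. Distance and length move together, since a first intron that reaches beyond 4 kb is itself long. When both were held within limits and each order had at least 20 members, the ratio of first to later was 1.64 for introns of 1 to 2 kb at 1 to 2 kb from the start, and 1.78 for introns of 2 to 5 kb at 2 to 4 kb. In introns of 5 kb or more it was 1.60 at 2 to 4 kb, 1.16 at 4 to 8 kb and 0.961 beyond 8 kb. In introns of 5 kb or more the ratio thus fell with distance from the start. It rested on 64 members of first and 28 of later introns at 2 to 4 kb. The ratio of 1.64 rested on 32 and 34. No intervals were computed for these ratios, so whether the fall exceeds counting error was not tested.

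Introns of at least 1 kb were cut into 5 equal parts, and members were sparse in the part at the 5′ end. First introns held 70.5 members per Mb (52.6 to 92.4) in this part and 165 (137 to 197) in the middle one. Later introns held 63.6 in the 5′ part, 102 in the middle one and 61.7 in the 3′ one, so the density fell at both ends, while the 3′ part of first introns kept 121 (97.3 to 149). At the 5′ end the intervals of first and later introns overlapped, and in the other 4 parts they were apart.

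Most introns held no member. Of 15710 first introns 361 (2.30%) and of 67278 later introns 630 (0.936%) held at least 1, and 107 and 186 held 2 or more. Among introns of 5 kb or more, 95 of 183 first introns (51.9%, 44.4 to 59.3%) and 134 of 321 later introns (41.7%, 36.3 to 47.4%) held a member, with overlapping intervals. The intron with the most members was intron 4 of *kin-1*, the catalytic subunit of protein kinase A, with 9 members in 21230 bp. It was followed by intron 2 of *mig-10*, a lamellipodin homolog that shapes actin protrusions, with 8, and by the first intron of *daf-5*, a Sno/Ski homolog of the TGF-β dauer pathway, and intron 2 of *sea-2*, with 7 each.

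Length alone did not give members. The longest first intron, in *cox-6B*, spans 86515 bp and held 1 member. The next longest, in the potassium channel gene *unc-103*, the chloride transporter gene *kcc-2* and the CREB gene *crh-1*, held 6, 3 and 5, and that of *elf-1* held none. Among the longest later introns, 20948 bp in intron 2 of *lin-1*, an ETS factor downstream of Ras in vulval induction, held none, nor did intron 5 of *Y75B7AL.2* with 20993 bp. Intron 4 of *Y48C3A.5* held 4. Intron 11 of *cpna-2* also held none, but only 1436 of its 20119 bp could hold a member, as genes and exons inside it take up the rest.

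The density varied along and between chromosomes. When each autosome was cut into 3 equal parts, the density in the central one was 89.7 members per Mb (83.1 to 96.7), and in the outer ones it was 42.2 (39.4 to 45.2). First introns held 128 and 66.0 per Mb in these zones and later introns 75.9 and 35.0, so first introns were denser in both. By chromosome the density was highest on II with 74.4 and III with 65.9 per Mb, and 52.8 on I, 45.2 on V and 44.2 on IV. The ratio of first to later introns was 1.35 on II and between 1.64 and 2.38 on the others.

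Many genes start shorter transcripts inside their introns. In 4594 autosomal genes 8023 such internal starts of protein-coding transcripts were annotated, and 242 members (16.0%, 14.2 to 17.9%) lay within 500 bp upstream of one, where 5.75% of the intronic bases lie. The density was 154 per Mb (135 to 175) there and 49.5 (46.8 to 52.3) elsewhere. In first introns 20.5% of the members and 10.2% of the bases were near an internal start, and in later introns 13.1% and 4.26%. Median fold enrichment was 4.31 and 4.89 near internal starts and 3.83 and 4.39 away from them in replicates 1 and 2, higher near internal starts in both. The ratio of first to later density was 1.82 away from internal starts. Near them it was 1.21, and the intervals overlapped, with 172 (142 to 207) per Mb in first and 142 (118 to 170) in later introns. One member near an internal start lies in intron 5 of *egl-43*, where the short isoform starts.

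Non-coding RNA genes nested in the introns also held summits. The summits of 141 members lay in such a gene, pseudogenes left out, a density of 337 per Mb (284 to 398). Of these genes, tRNA genes held 17 summits, or 1234 per Mb (719 to 1976), with low fold enrichment (medians 3.42 and 3.62), and snoRNA genes held 12, or 595 per Mb (308 to 1040). Genes of the class ncRNA held 115, or 449 per Mb (371 to 539), but these classes overlap, since 14 of the 17 tRNA summits and 1 of the snoRNA summits also lay in an ncRNA gene. In no tRNA, snoRNA or snRNA gene lay 99 of the 115. No summit lay in a piRNA gene, although 0.0846 Mb of such sequence was in introns, which allows a density of up to 43.6 per Mb, nor in a miRNA gene, where 0.00637 Mb allow up to 579 per Mb. The *ckb-2* member, the second strongest, had its summit in *srpr-1.2*, annotated as ncRNA, and 59.6% of its sequence occurs more than once in the genome. Its value is therefore uncertain, as reads of repeated sequence cannot be assigned to 1 copy. A member of similar position in *klp-6* had its summit in *srpr-2.2* and values of 10.3 and 10.03.

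Repeated sequence was otherwise rare, with a mean of 3.15% of the 32-base words of a member found more than once in the genome, against 9.80% over the intronic bases. Only 36 members were repeated over more than 50% of their words, 7 in first and 28 in later introns. Without these, the ratio of first to later density was 1.89.

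The summits were rich in G and C. The median GC content of the 101 bp at the summit was 45.5%, against 32.7% over all intronic windows of the same length, and it was 44.6% in first and 45.5% in later introns. Values at the other autosomal classes were close, between 44.6% and 46.5%. Since GC content changes how often a word occurs, each share of a word is given beside that of all intronic windows and of the same windows weighted to the GC content of the members. The part of GC content in the peak calls was not tested.

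The EVI1 word AGATGAG was found in the windows of 72 members (4.76%, 3.74 to 5.95%), against 0.820% of all intronic windows and 1.16% after weighting. The AP-1 word TGACTCA was found in 55 (3.63%, 2.75 to 4.70%), against 0.737% and 0.747%. The GA repeat GAGAGAG was the most frequent, in 259 members (17.1%, 15.2 to 19.1%), against 1.22% and 3.36%. All 3 words were thus more frequent at the members than in either background. For the GATA word AGATAA the share was 4.82% (3.80 to 6.02%), against 5.73% and 3.75%, so it lay on different sides of the backgrounds. CAGCTG was in 2.58% (1.84 to 3.50%), against 1.38% and 2.33%, within the interval after weighting. ACAAGATA was in 5 members (0.330%), against 0.266% and 0.217%, which the interval of 0.107 to 0.769% includes.

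**Figure D3:**
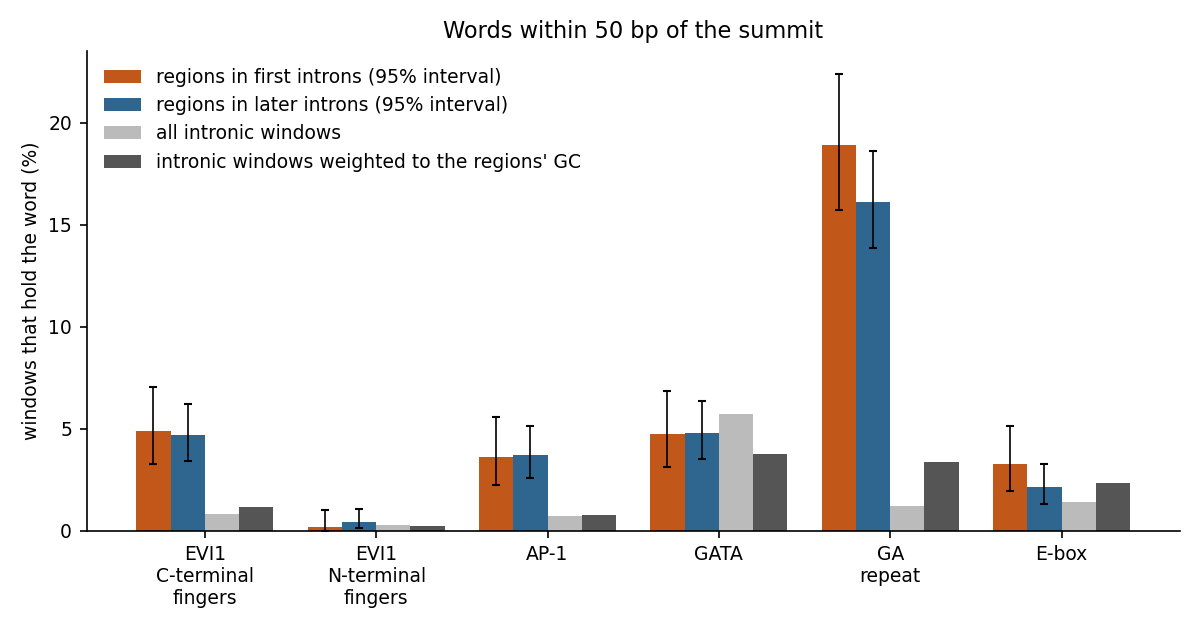
Share of 101-bp windows (y axis, %) that hold each word on either strand, for members in first (orange) and later (blue) introns with 95% Clopper-Pearson intervals, for all intronic windows (light grey) and for these weighted to the members' GC content (dark grey). The GA repeat was in 18.9% of windows in first and 16.1% in later introns, and the intervals of first and later introns overlap for every word.

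First and later introns did not differ in these words beyond counting error. AGATGAG was in 4.90% and 4.67%, TGACTCA in 3.63% and 3.71%, and GAGAGAG in 18.9% and 16.1%, with overlapping intervals. In the other autosomal classes AGATGAG was in between 3.49% and 4.27% of regions, and their intervals overlapped that of introns. GAGAGAG was in 12.8% of regions within 500 bp upstream, 11.9% of those in exons, 14.2% of distal ones and 18.7% of those 500 to 2000 bp upstream. For GAGAGAG the interval of introns, 15.2 to 19.1%, was apart from that of the 500 bp upstream, 11.1 to 14.7%, and overlapped the others. CAGCTG was less frequent in introns, with 2.58%, than in the 500 bp upstream, with 4.29% (3.28 to 5.50%), and in exons, with 5.22% (3.26 to 7.87%), where the intervals overlapped that of introns. None of these comparisons was tested.

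The words varied with strength. With the members cut into 4 equal groups from the weakest to the strongest by the lower of their fold enrichments, AGATGAG was found in 2.64%, 3.70%, 5.03% and 7.65%, and GAGAGAG in 11.6%, 15.1%, 16.9% and 24.8%, and for both the intervals of the weakest and the strongest group were apart. TGACTCA had no such order, with 2.11%, 4.50%, 5.29% and 2.64%. Members with AGATGAG had median fold enrichments of 4.71 and 5.55, and those without it 3.87 and 4.45 in replicates 1 and 2, so that members with the word were higher in both. AGATGAG and TGACTCA stood together in 5 members, with overlapping matches in 3, namely intron 1 of *dab-1*, intron 3 of *tir-1* and intron 2 of *mig-10*. These 3 were singled out after their values were seen.

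The strongest member lay in the first intron of *cyc-2.1*, which encodes cytochrome c, with fold enrichments of 17.1 in both replicates. The members of *mpk-1*, the ERK kinase of the Ras pathway, reached 14.3 and 14.7 in replicates 1 and 2, and of *unc-119*, a trafficking chaperone of neurons, 13.9 and 14.5. Also in first introns were those of *F40F11.3* (15.5 and 13.8), of *daf-5* (15.2 and 13.6), of *let-526*, an ARID-domain subunit of the SWI/SNF complex (13.9 and 13.4), and of *rme-1*, an endocytic recycling factor (13.1 and 14.6). Later introns gave those of *ckb-2*, a choline kinase (15.03 and 15.2), of the classical cadherin *hmr-1* in intron 21 (14.6 and 15.2) and of the FOXO factor *daf-16* in intron 6 (14.3 and 12.8). The replicates differed by less than the spread of all members in each of these 10.

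Of the 16471 autosomal protein-coding genes with intronic bases, 786 held a member (4.77%), 308 of them 2 or more and 61 at least 5. The share rose with intronic length, from 0.231% of genes with under 500 bp to 9.93% at 2 to 5 kb and 47.6% (42.7 to 52.5%) at 10 kb or more. The most members were in *mig-10*, with 16, of which 1 was in the first intron. It was followed by *kin-1* with 13, the cadherin gene *hmr-1*, the Nemo-like kinase gene *lit-1* and the MAPK phosphatase gene *vhp-1* with 10 each, and *crh-1*, *daf-5*, the receptor phosphatase gene *ptp-3*, *unc-73* and the cAMP phosphodiesterase gene *pde-4* with 9 each. Members were in first introns in 7 of the 9 of *daf-5* and 5 of the 10 of *vhp-1*, and in none of those of *kin-1*, *hmr-1*, *lit-1*, *ptp-3* and *pde-4*.

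**Figure D4:**
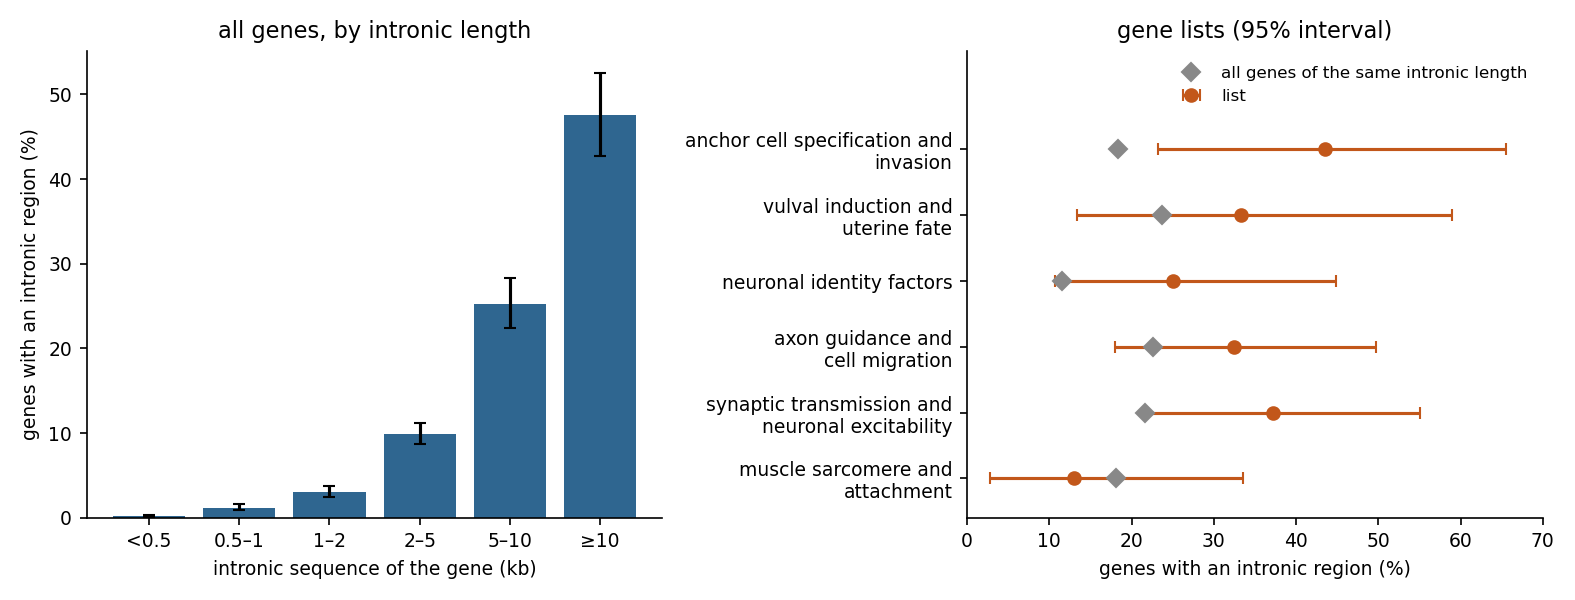
Share of autosomal protein-coding genes with at least 1 intronic member (%), with 95% Clopper-Pearson intervals, by the intronic sequence of the gene in kb (bars) and for 6 gene lists (orange points), beside the share of all genes of the same intronic length (grey diamonds). The share reaches 47.6% in genes with 10 kb or more, and the interval of the AC list, 23.2 to 65.5%, lies above its diamond at 18.4%, while the other 5 include theirs. Without *egl-43*, *fos-1*, *jun-1*, *lin-12*, *mig-10* and *zmp-1*, the AC interval (10.3 to 56.0%) includes the 14.3% of genes of that length.

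Of 23 genes of AC specification and invasion 10 held a member (43.5%, 23.2 to 65.5%), against 18.4% of all genes of the same intronic length. This list holds genes the study named from these data, so it is not independent evidence. Without *egl-43*, *fos-1*, *jun-1*, *lin-12*, *mig-10* and *zmp-1*, 5 of 17 held a member (29.4%, 10.3 to 56.0%), against 14.3%, which the interval includes. Other genes the study examined stay among the 17, such as *cyd-1* and *rnr-1*, which held 1 member each. Genes of synaptic transmission and excitability followed with 13 of 35 (37.1%, 21.5 to 55.1%, against 21.6%), then vulval induction with 6 of 18 (33.3% against 23.7%), axon guidance with 12 of 37 (32.4% against 22.6%), neuronal identity factors with 7 of 28 (25.0% against 11.5%) and muscle sarcomere genes with 3 of 23 (13.04% against 18.2%). For these 5 lists the intervals included the share of genes of the same length.

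Members of the AC list had medians of 4.04 and 4.09 in replicates 1 and 2, against 3.92 and 4.47 for all members. The list was thus higher in replicate 1 and lower in replicate 2. Besides *egl-43*, the strongest was in the first intron of *lag-1*, the CSL factor of Notch signaling, with 8.87 and 11.6. No member was found in *cdh-3*, *nhr-67*, *hlh-2*, *lin-3* or *zmp-1*. The paper, which did not limit peaks to introns, reports EGL-43 enrichment at *hlh-2* and *zmp-1*. For *nhr-67* and *cdh-3* it reports no specific binding. Regions at *hlh-2* outside introns are not described here. The regions at *zmp-1*, which encodes a matrix metalloprotease, had summits in exons or within 500 bp upstream of a gene start and were not counted. Of the vulval genes, *mpk-1* had 4 members and the Ras exchange factor *sos-1* 1, with 5.75 and 7.13. Among the neuronal identity genes *unc-62*, a Meis homeodomain factor, had a first-intron member with 6.71 and 7.73, and the ETS factor *ast-1* had 3 in intron 5.

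In the other lists, the strongest guidance member was in *unc-76*, an axon fasciculation gene (9.84 and 10.1). The second lay in intron 1 of *F55C7.2*, which is inside intron 20 of *unc-73* (8.81 and 11.3). They were followed by members in *unc-33*, a CRMP homolog (7.40 and 9.37), and in the L1CAM gene *sax-7* (6.53 and 7.17). Synaptic genes gave the cGMP-dependent kinase gene *egl-4* with 9.64 and 11.7 in its first intron, and *unc-43*, the CaM kinase II gene, with 8.04 and 8.44. In muscle genes the ryanodine receptor gene *unc-68* had a first-intron member with 5.57 and 6.08, and the tropomyosin gene *lev-11* one in intron 3 with 4.37 and 4.17. Later introns held 36 of 42 members of the guidance list and 34 of 43 of the synaptic list, beside 62.3% of all members. In the vulval list they held 4 of 12, in that of neuronal identity 5 of 10, in the muscle list 3 of 5 and in the AC list 30 of 38. Single genes gave many of these members, with 9 each in *ptp-3* and *unc-73* of the guidance list. In the synaptic list *pde-4* had 9, and in the AC list *mig-10* had 16. How the intronic bases of each list divide between first and later introns was not computed, and its part was not tested.

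In *egl-43* itself 5 members were found. Fold enrichment in replicates 1 and 2 was 7.49 and 8.69 in intron 1, 2.96 and 4.14 in intron 3, 7.93 and 9.20 in intron 4, 13.8 and 12.6 in intron 5, and 2.87 and 3.46 in intron 6. The intron 5 member, 828 bp long at chrII:9959772-9960599, was well above the others in both replicates, and its intron is only 435 bp long. Those of introns 1 and 4 were within the replicate spread of each other, as were those of introns 3 and 6. The gene also had regions that are not intronic. One upstream of it was stronger than any of its members, with 17.7 and 16.5, and 2 in exons had 3.05 and 3.80, and 2.79 and 2.95.

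The intronic members of the 2 AP-1 genes were weaker than the intron 5 member of *egl-43*. In *fos-1*, the 3 members gave 4.34 and 4.56 in intron 1, and 3.05 and 3.21, and 4.62 and 2.87 in intron 3, and 2 further regions of the gene, with summits in exons, were stronger, with 8.10 and 9.37, and 4.88 and 6.84. In *jun-1*, 2 of the 7 members lay in intron 1 (3.77 and 3.50, then 3.54 and 5.62), 1 in intron 2 (5.80 and 4.24) and 4 in intron 6. A region within 500 bp upstream of *jun-1*, not a member, had 8.04 and 7.99. The strongest member was the last in intron 6, with 8.63 and 6.27, while its neighbour had 5.11 in replicate 1 and 2.66 in replicate 2, a larger gap than is usual among members. Of the *jun-1* members, 2 in intron 6 hold TGACTCA, 1 of them at 2 places.

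In *lin-12*, the Notch receptor gene, 1 member lay in intron 4 (4.53 and 4.14) and 1 in intron 2 (3.73 and 2.70), and the first intron held none. The 16 members of *mig-10* were spread over 5 introns, with 8 in intron 2. They ranged from 2.68 to 8.03 in replicate 1 and from 2.36 to 7.16 in replicate 2. The strongest, in intron 2, had 8.03 and 7.16 and holds the overlapping TGACTCA and AGATGAG words shown above. Next came one in intron 3 with 7.58 and 7.004, which also holds AGATGAG, and the single first-intron member had 2.68 and 4.87.

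**Figure D5:**
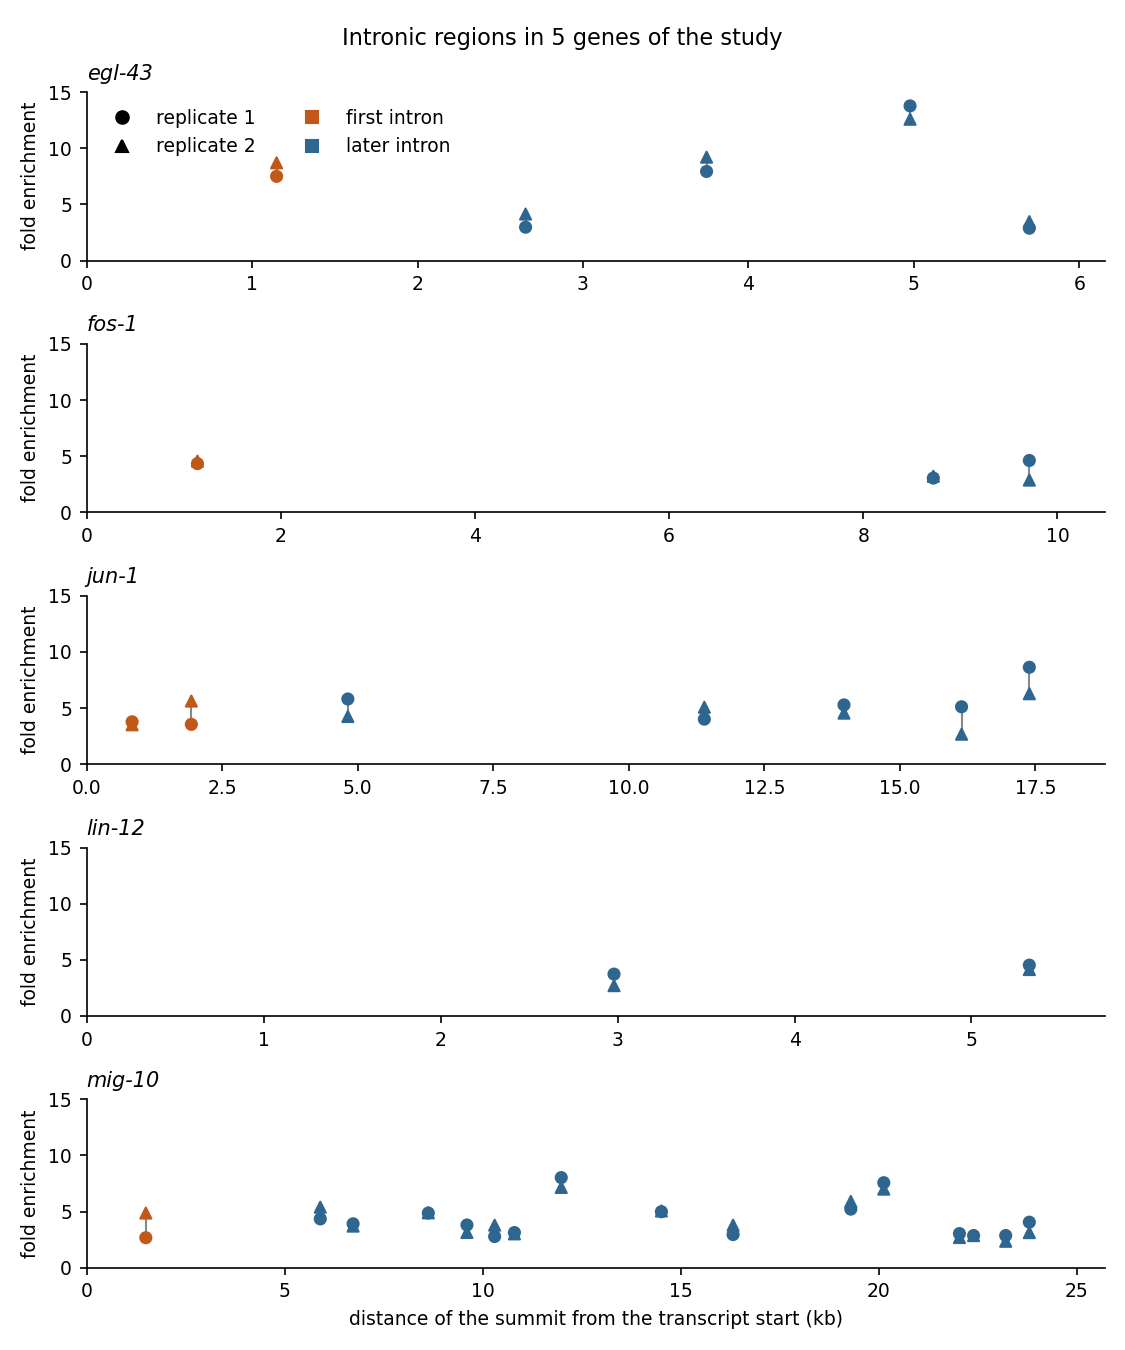
Fold enrichment (y axis) of each intronic member of 5 genes against the distance of its summit from the transcript start in kb (x axis). Circles are replicate 1 and triangles replicate 2, joined by a line, orange in first and blue in later introns. The highest pair, 13.8 and 12.6, is in intron 5 of *egl-43*, and *mig-10* has 16 pairs, of which 15 are in later introns.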

How the data were processed

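ChIP-seq peaks of EGL-43::GFP were analysed in 2 L3 replicates. Reads were aligned by the authors to ce11 (WBcel235) with BWA 0.7.7, converted with SAMtools 0.1.19 and peaks were called with MACS2, whose version is not given in the sources used here, replicate by replicate with an FDR of 0.05. The lists hold 8394 and 10925 peaks and precede the later filtering steps of the study. The deposited fold enrichment is the ratio of reads at the summit to the local background. The deposited −log10 p-values and −log10 q-values are those of the authors' MACS2 run, of which the q-value served only as a stricter alternative. The deposited score, a rounded form of the q-value, was not used, and the summit is deposited as an offset from the peak start. Read totals are not given, so the depth is unknown, and a value is judged by the spread between replicates.

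Peaks were merged at an overlap of at least 1 bp, and regions of both replicates were classed by summit against Ensembl release 115 (19985 protein-coding genes) with Python 3.11.15, numpy 2.4.6, pandas 2.3.3 and scipy 1.17.1. Introns were numbered in the longest protein-coding transcript. Densities divide counts by the bases that could hold a member. Intervals are 95% Clopper-Pearson for shares and exact Poisson for densities. Words were searched on both strands within 50 bp of the summit. Merging, classification and density ratios were tested on simulated data. Members named are the 10 with the highest lower fold enrichment, the 10 genes and introns with most members, the longest introns, those of the study genes and up to 4 per gene list. Windows of these were written out for 40 members, of which 14 are printed. One gene list is not reported here. The members and lists were chosen with earlier results of these data known. Alternatives changed the replicate used, the q-value, the overlap, the start and exon limits, the intron numbering and the summit.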

Additional observations from a re-analysis of the deposited data

How the results depend on the processing

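The lists give no control and no depth, so weak regions found in 1 replicate may be missed by the other for reasons that were not tested. The number of members was 1514, and 1753 and 2366 when only the peaks of replicate 1 or replicate 2 were used. The share near internal starts was 16.0%, and 13.5% and 16.3% with the peaks of replicate 2 or replicate 1 alone. If an intron was called first when it is first in any protein-coding transcript, the share of members in first introns was 53.8% instead of 36.4%. The density ratio was then 2.40 instead of 1.86. This definition moves introns from the later to the first group, which raises the share. Why the density ratio rose was not tested. The share near internal starts has no value when all transcript starts are removed. The log2 difference of first and later medians was higher in first introns throughout. In replicate 1 it moved from 0.065 to 0.033 with a reciprocal overlap of 50%, 0.035 with exons of every biotype, 0.079 with first introns of any transcript, 0.086 with the summit of the lower replicate and 0.092 with summits within 100 bp, and was 0.063 over all its peaks. In replicate 2 it moved from 0.081 to 0.109 with the summit of the lower replicate and 0.117 over all its peaks. The other listed alternatives left these results and the number of host genes within 1.5 times, the interval or the SD of 0.012. Among alternatives chosen after seeing the data, the density ratio was 1.68 in the central part of the chromosomes, 1.82 away from internal starts and 1.89 without repeated sequence. For words, the ratio to intronic windows moved from 5.80 to 4.36 (100 bp either side), 7.57 (stronger members) and 4.11 (GC weighting) for AGATGAG, from 13.97 to 10.9, 16.9 and 5.09 for GAGAGAG, and from 4.93 to 3.63 at 100 bp for TGACTCA. With GC weighting it moved from 0.842 to 1.29 for AGATAA and from 1.86 to 1.11 for CAGCTG.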
